A study of Mus musculus with 14 samples.

Results

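Neurons that release peptides as well as small transmitters make them from larger precursors, and 10 genes of that route are described here: the granin Scg2 and the related Scg3 and Vgf, the prohormone convertases Pcsk1 and Pcsk2, and the peptide precursors Tac1, Penk, Sst, Npy and Crh. They were chosen by gene symbol, and all 10 were found among the 52459 gene symbols of the deposited count table. RNA was sequenced from cultured cortical neurons of mouse embryos (E16.5) that carried 1 of 2 knock-in alleles of BRG1, an ATPase that drives chromatin remodelling by BAF complexes, or no such allele. SA neurons have alanine and SE neurons glutamate in place of serine 1382, a residue whose phosphorylation the series title links to activity-dependent gene activation. Every culture, controls included, received tetrodotoxin (1 µM), a sodium channel blocker, and APV (100 µM), an NMDA receptor blocker, on day 5 in vitro to stop spontaneous firing. On day 6 a culture was either left unstimulated (basal) or depolarised with 50 mM KCl for 1 h. Wild-type littermates accompanied each mutant, which gave 2 SA and 2 wild-type libraries per treatment in the SA line, and 2 SE libraries and 1 wild-type library per treatment in the SE line, 14 in all. The labels do not say whether replicates came from separate animals or cultures, or whether basal and KCl libraries sharing a number also share one. P-values here therefore measure the spread between these libraries, which may be technical. Such a pair is called a culture for short.

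Peptide precursors enter the secretory pathway and are packed into dense-core vesicles, where convertases cut them at pairs of basic residues. PC1/3, the product of Pcsk1, usually cuts early and PC2, the product of Pcsk2, cuts later. Granins are acidic proteins of the vesicle core that are themselves precursors: Scg2 yields secretoneurin and Vgf yields a set of peptides including TLQP-21. Scg3 binds other granins and cholesterol-rich vesicle membrane. In cortex, Sst and Npy mark classes of GABAergic interneurons, Crh is found mostly in interneurons, Tac1 encodes substance P and neurokinin A, and Penk encodes enkephalins and is abundant in striatal projection neurons.

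Several of these genes are textbook targets of CREB, a transcription factor that calcium entry activates, and the somatostatin promoter is where its binding sequence, the cAMP response element, was first worked out. Promoter sequence was available for 7 of the 10 genes (Scg2, Scg3, Pcsk1, Pcsk2, Tac1, Sst and Npy). The 250 bases before the RefSeq start were searched on both strands for the full element TGACGTCA, the variant TGCGTCA, the core TGACG, which the full element contains, and the AP-1 motif TGANTCA. The full element was present in 3 of the 7 promoters, those of Scg2, Pcsk1 and Sst, against 1.55% of 32851 mouse promoters. It began 68 bases before the start of Scg2, 78 before that of Pcsk1 and 48 before that of Sst. The 3 full elements fall in 2 genes that rose after KCl, Scg2 and Pcsk1, and in Sst, which did not pass. Whether element and response are linked was not tested. The windows that hold the best match of each gene are shown. They are from RefSeq, build GRCm38.p6, 5′ to 3′ on the strand of the gene, with the match in capitals:
Scg2: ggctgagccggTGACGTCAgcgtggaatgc
Pcsk1: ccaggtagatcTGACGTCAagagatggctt
Sst: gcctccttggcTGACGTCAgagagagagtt
Tac1: ttccctaaaatTGCGTCAtttcgaacacaa
Scg3: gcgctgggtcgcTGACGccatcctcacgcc
Pcsk2: ctggcgggcgcgCGTCAcccgggctggcgc

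The windows lie at chr1:79440076-79440105 (minus strand) for Scg2, chr13:75089768-75089797 (plus) for Pcsk1, chr16:23890874-23890903 (minus) for Sst, chr6:7554851-7554880 (plus) for Tac1, chr9:75684069-75684098 (minus) for Scg3 and chr2:143546087-143546116 (plus) for Pcsk2. The Tac1 window holds the variant, 199 bases before the RefSeq start, which 1.75% of promoters contain. GENCODE M21 places its most upstream Tac1 start 182 bases before that of RefSeq, so the variant lies just upstream of the GENCODE start. In the Pcsk2 window the core is on the other strand and reads CGTCA. The core occurred in 6 of the 7 promoters, all but that of Npy, against 17.8% of promoters, and the AP-1 motif occurred in 0 of the 7 against 6.75%. GENCODE M21 places its most upstream start of Scg2 94 bases and that of Sst 114 bases before the RefSeq start, so these 2 elements are annotated there as 5′ untranslated sequence of the first exon. A match describes the letters in the window and was not tested for binding.

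Libraries were nearly equal in depth, at 22625916 to 23096206 estimated counts, with 5.91% to 8.31% from the mitochondrial genome. Smarca4, which encodes BRG1, averaged 427.3 CPM (counts scaled to library size), and its log2 difference from wild type at basal was 0.06 in SA (adjusted p = 0.874) and 0.02 in SE (adjusted p = 1), although a changed codon need not alter this level and it checks neither label. Markers of the labelled cell type were present in every library, with summed levels of 664.9 to 2705 CPM for 10 glutamatergic cortical markers and 614.5 to 1119 CPM for 19 GABAergic interneuron markers, none of them at 0. Astrocyte markers were also present, at 740.6 to 3066 CPM over 10 genes. Both libraries of SA-line wild-type culture 1 stood apart: they had the lowest glutamatergic sums (664.9 CPM at basal and 725.4 after KCl) and the highest progenitor sums (1194 and 1214 CPM, over 8 genes). Values without this culture, an alternative chosen after the data were seen, are given beside the differences it moved most.

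Levels per transcript length, in TPM (a measure scaled to transcript length and library size), ranked the genes at basal from Scg3 at 187.7 ± 25.97 (SD, n = 7) to Pcsk1 at 1.31 ± 0.447. Between them came Npy at 37.7 TPM, Sst at 34.5, Pcsk2 at 24.5, Scg2 at 18.1, Penk at 15.2, Vgf at 10.8, Crh at 2.81 and Tac1 at 1.69. The place of Npy holds only for the pool of both lines: it averaged 60.9 TPM in the SA line and 6.70 TPM in the SE line, where Sst, Penk (24.96), Pcsk2 (16.9), Scg2 (14.8) and Vgf (11.65) were above it. In the pooled order neighbours were separated in every library only between Scg3 and Npy and between Vgf and Crh, and all other neighbours overlapped. After KCl, Scg3 was still highest at 183.3 ± 14.5 TPM, Vgf was next at 80.7 ± 36.0 and Scg2 followed at 72.03 ± 19.4. Sst then lay at 50.7 TPM, Npy at 37.2, Pcsk2 at 23.3, Penk at 19.4, Crh at 18.6, Pcsk1 at 15.4 and Tac1 at 5.37. Here only Scg3 and Vgf, and Pcsk1 and Tac1, were separated. The pooled stimulated order thus placed 2 secreted granins directly behind Scg3. Their ranges overlapped, at 43.6 to 139.5 TPM for Vgf and 48.1 to 98.5 TPM for Scg2. In the SA line Scg2 averaged 86.7 TPM and Vgf 56.5, with Sst (61.7) and Npy (61.6) between them. In the SE line Vgf averaged 112.9 TPM and Scg2 52.5.

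**Figure D1:**
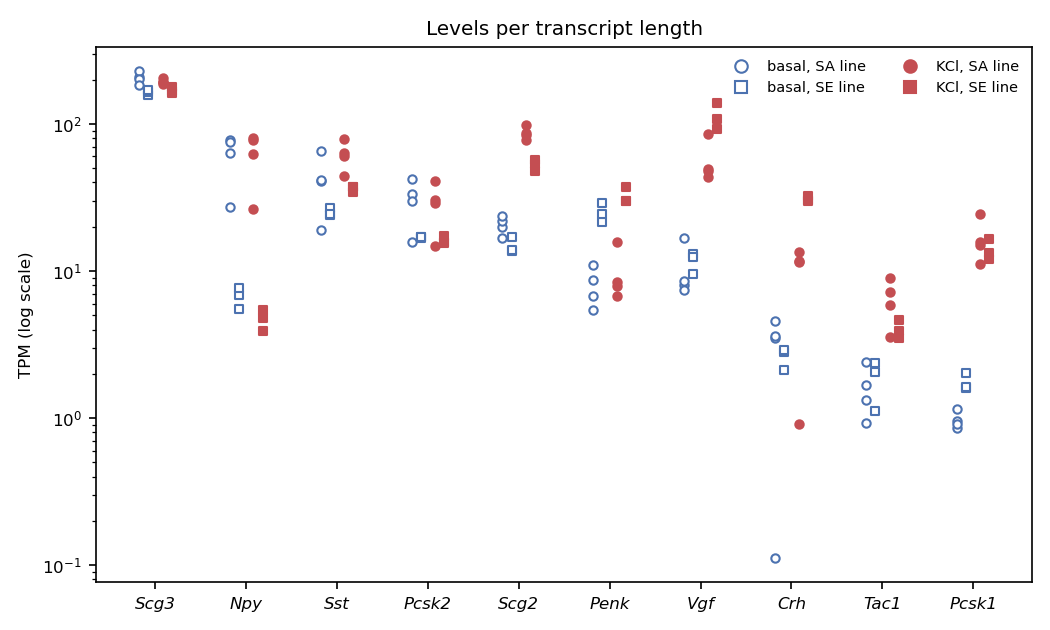
Level per transcript length (TPM, log axis) of the 10 genes in each of the 14 libraries; open symbols are basal, filled symbols KCl, circles the SA line and squares the SE line. Genes are ordered by their basal mean, from Scg3 at 187.7 TPM to Pcsk1 at 1.31 TPM, and the single low Crh points are SA-line wild-type culture 1.

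Depolarisation for 1 h raised 5 of the 10 genes over all 7 cultures: Pcsk1, Vgf, Crh, Scg2 and Tac1. Of the 17732 genes tested in this comparison, 4.82% passed an adjusted p under 0.05, and 2.81% passed as higher. None of the 10 fell. The median log2 change of the 10 genes was 1.14, against 0.0086 over all genes tested. Within genotypes, 4 of the 10 rose in wild type (1.41% of all genes called, 1.05% as higher), 3 in SA (0.846%, 0.699% as higher) and 3 in SE (1.66%, 1.22% as higher). Scg2, Vgf and Pcsk1 were called in all 3 genotypes, which are parts of the same 7 cultures and so no independent check of the pooled value. RNA was taken from whole cultures, so that a change in the RNA of each cell and a change in the number of cells of a type cannot be told apart.

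**Figure D2:**
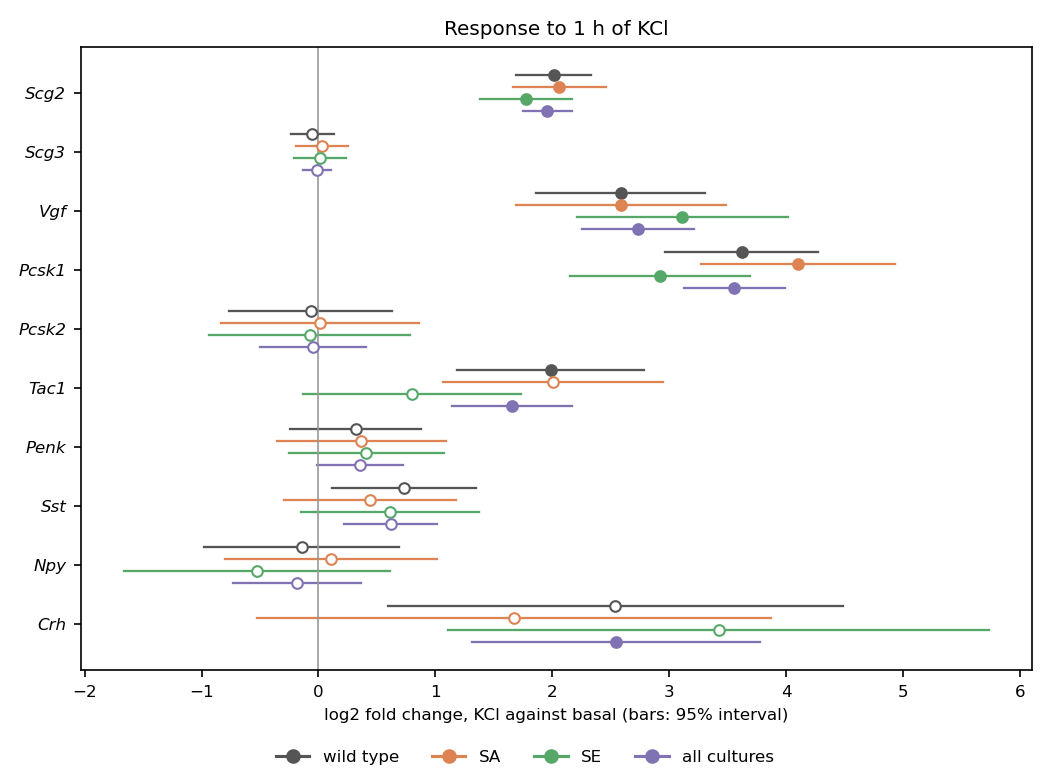
Log2 fold change after 1 h of KCl against basal for each gene in wild type (3 cultures), SA (2), SE (2) and all 7 cultures; bars are 95% intervals of the edgeR fit and filled points passed an adjusted p under 0.05. Scg2, Vgf and Pcsk1 are filled in every genotype, and Scg3 lies at 0 with the shortest bars.

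Among the granins, Scg2 (chr1:79434669-79440120, minus strand, GRCm38 as all positions that follow) had basal levels of 25.55 and 26.2 CPM in wild-type replicates 1 and 2 of the SA line, which reached 102 and 124.5 CPM after KCl. SA replicates went from 31.5 and 22.5 CPM to 120.5 and 105 CPM. In the SE line the wild type went from 20.1 to 68.7 CPM and the SE replicates from 24.6 and 20.4 to 79.3 and 74.8 CPM. Every stimulated library was above every basal one, and stimulated levels of the SE line were all below those of the SA line. The share of all genes with lines apart after KCl was not counted, and 47.8% were called between lines at basal. Over all cultures the log2 fold change was 1.96 ± 0.09 (SE, adjusted p = 1.29e-06), or 3.88-fold. The ratio within a culture ran from 3.23 to 4.75, the narrowest relative range among the 5 genes that rose.

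Vgf (chr5:137026392-137033351, plus strand) showed more spread. Its basal levels in the SA line were 26.7 and 11.3 CPM in wild type and 12.3 and 13.2 CPM in SA, and KCl brought them to 131.5 and 67.2 CPM and to 77.0 and 76.7 CPM. The SE line moved from 20.0 to 158 CPM in wild type, and from 22.64 and 24.6 CPM to 233 and 175 CPM in SE. No basal library reached any stimulated one, and after KCl all 3 libraries of the SE line exceeded all 4 of the SA line, whose highest value was wild-type culture 1. The share of all genes with lines apart in this way was not counted. The log2 fold change over all cultures was 2.74 ± 0.21 (adjusted p = 4.39e-05), or 6.66-fold, with ratios of 4.92 to 10.3 within cultures. In SA alone the change was 2.59 ± 0.40 (adjusted p = 0.0158), a call lost in 5 of 21 other settings, namely when the SA line was fitted alone and when any of the 4 SA libraries was left out (adjusted p up to 0.22). In SE it was 3.11 ± 0.40 (adjusted p = 0.00332), lost when either basal SE library was left out (adjusted p up to 0.0734).

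Scg3 (chr9:75643189-75684056, minus strand), the most abundant of the 10 genes, did not pass. It held 197 to 234 CPM at basal and 205 to 231 CPM after KCl, with full overlap of the 2 treatments. Its log2 change was -0.01 ± 0.05 (adjusted p = 0.988), with a 95% interval of -0.13 to 0.109. That interval leaves out changes of the size seen for Scg2 and Vgf.

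One convertase rose and the other did not pass. Pcsk1 (chr13:75089826-75134861, plus strand) was low at basal, at 2.39 and 2.66 CPM in SA-line wild type, and 24.6 and 56.25 CPM after KCl. The SA replicates went from 2.17 and 2.40 to 40.6 and 38.2 CPM. The SE line began higher, at 4.29 CPM in wild type and 5.59 and 4.64 CPM in SE, and reached 31.3 CPM in wild type and 33.7 and 44.0 CPM in SE. All stimulated libraries lay above all basal ones, while the stimulated levels of the lines overlapped. The log2 fold change over all cultures was 3.56 ± 0.19 (adjusted p = 2.72e-06), or 11.8-fold, the largest of the 10 genes. The basal values of the SA line rest on 50 to 64 counts per library, so their counting error is about as large as the distance between them (50 counts, 95% Poisson interval 37.1 to 65.9; 64 counts, 49.3 to 81.7).

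Pcsk2 (chr2:143546156-143816285, plus strand) followed the culture and not the treatment. SA-line wild type stood at 41.15 and 81.1 CPM at basal and at 37.9 and 80.5 CPM after KCl, and SA at 115.6 and 82.9 CPM at basal and at 119 and 81.8 CPM after KCl. The SE line held 45.6 to 51.0 CPM throughout. Each culture kept its own level, with a KCl to basal ratio of 0.894 to 1.03. The log2 change over all cultures was -0.05 ± 0.20 (adjusted p = 0.986), with an interval of -0.501 to 0.41, and its sign turned when single libraries were left out. Pcsk2os1, an RNA from the opposite strand, overlaps the gene by 1682 bases and held 15.5 to 46.8 counts per library, and strand-specific counting is not stated.

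**Figure D3:**
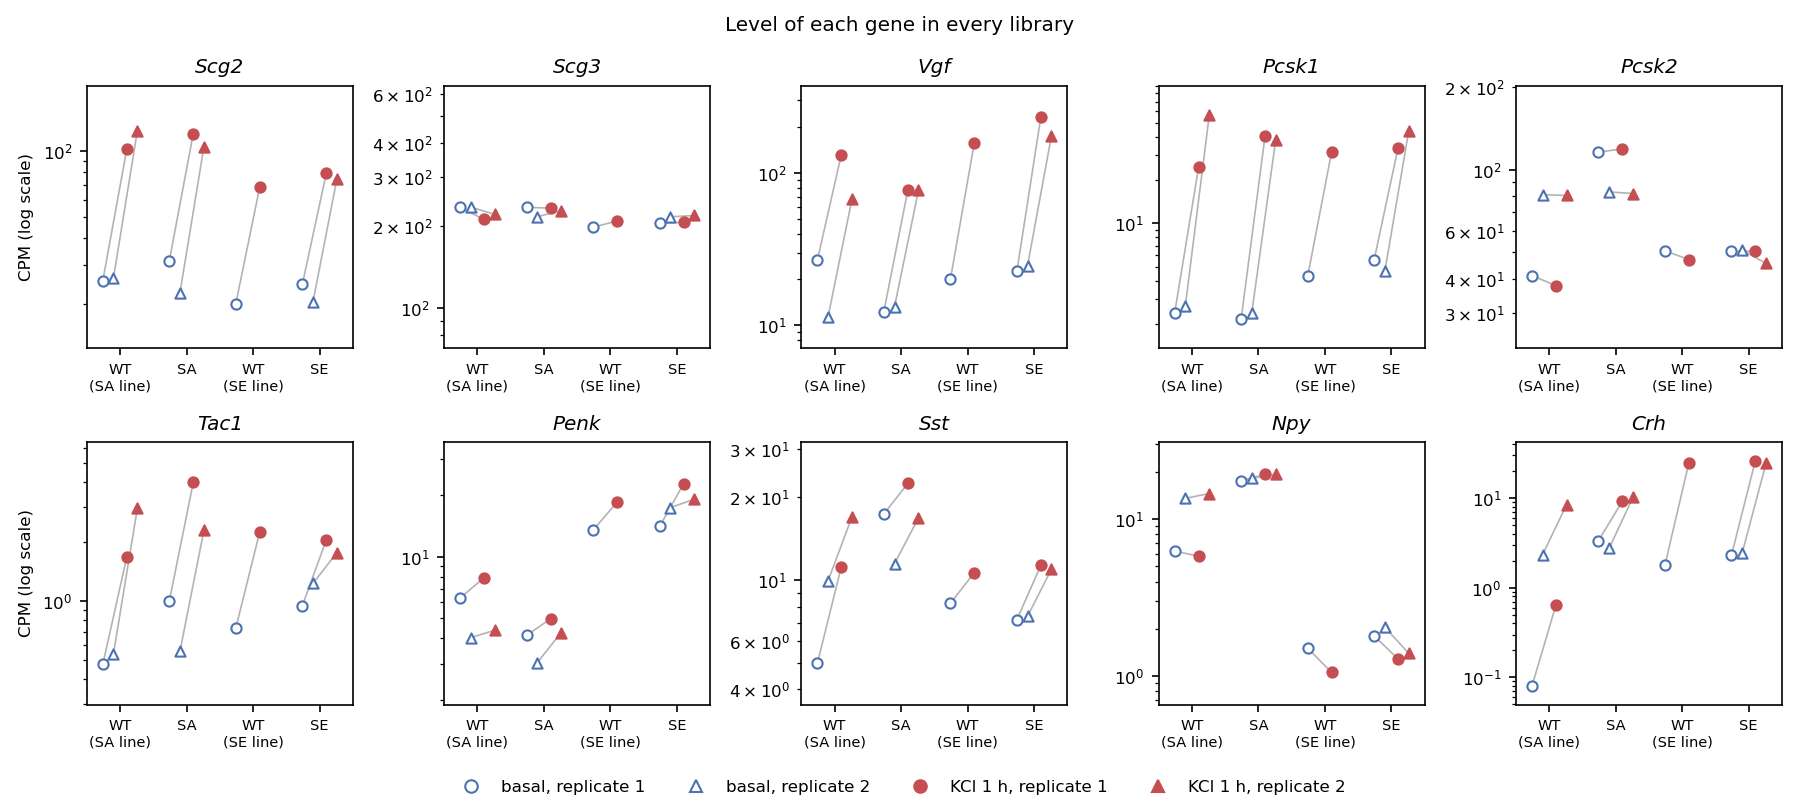
Level of each gene in all 14 libraries (CPM, log axis, own range per panel); open blue symbols are basal, filled red symbols KCl, circles replicate 1 and triangles replicate 2, and lines join libraries of the same number. Lines for Scg2, Vgf, Pcsk1, Tac1 and Crh climb in every culture, those for Pcsk2 stay near the level of each culture and those for Npy do so in the SA line and drop in the SE line, and wild-type replicate 1 of the SA line is the lowest Crh point, at 0.0796 CPM.

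Of the peptide precursors, Tac1 (chr6:7554879-7565834, plus strand) rose from a very low base. SA-line wild type went from 0.478 and 0.539 CPM to 1.67 and 2.96 CPM, SA from 1.0 and 0.556 to 4.002 and 2.29 CPM, SE-line wild type from 0.731 to 2.25 CPM, and SE from 0.947 and 1.23 to 2.04 and 1.76 CPM. These levels correspond to 12 to 27 counts at basal and 38 to 90 after KCl. The treatments did not overlap. The log2 fold change over all cultures was 1.65 ± 0.23 (adjusted p = 0.00199), or 3.15-fold. In wild type it was 1.99 ± 0.36 (adjusted p = 0.0249), a call lost in 11 of 23 other settings (adjusted p up to 0.822). Those included leaving out any wild-type library except the KCl library of SA-line culture 1, or any SE library. SA gave 2.01 ± 0.42, which did not pass with edgeR (adjusted p = 0.080) but did with DESeq2 (adjusted p = 0.0182), without a filter (adjusted p = 0.0152) and with a replicate block (adjusted p = 7.15e-04). SE gave 0.80 ± 0.42 (adjusted p = 0.726).

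Crh (chr3:19693401-19695396, minus strand), the precursor of corticotropin-releasing hormone, had the largest log2 change among the 5 precursors described over all cultures, although not in SA, where Tac1 gave 2.01 and Crh 1.67. In SA-line wild-type culture 1 it held 2 counts at basal (0.0796 CPM, 95% Poisson interval 0.242 to 7.22 counts) and 16 after KCl (0.636 CPM). The other wild-type culture of that line went from 2.32 to 8.41 CPM, and SA from 3.35 and 2.74 CPM to 9.20 and 10.2 CPM. The SE line started at like levels, 1.78 CPM in wild type and 2.30 and 2.41 CPM in SE, and reached 24.8 CPM in wild type and 26.2 and 24.5 CPM in SE. Without culture 1 the treatments did not overlap. The stimulated libraries of the SE line were also all above those of the SA line, and here too the share over all genes was not counted. Over all cultures the log2 change was 2.54 ± 0.55 (adjusted p = 0.0269), or 5.83-fold, and this call was lost in 12 of 21 other settings (adjusted p up to 0.105). It was lost without any single library other than both of culture 1 and the basal one of wild-type culture 2, and the change was 1.74 (adjusted p = 0.0805) without the KCl library of wild-type culture 2. Without culture 1 it was 2.64 (adjusted p = 2.76e-07). In wild type alone Crh gave 2.54 ± 0.87 (adjusted p = 0.39), and 2.82 (adjusted p = 2.51e-05) without that culture. That value rests on single libraries: it was 0.67 (adjusted p = 0.835) without the KCl library of wild-type culture 2 and 5.08 (adjusted p = 0.118) without its basal library.

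Sst (chr16:23889573-23890958, minus strand) was higher after KCl in 7 of 7 cultures and yet did not pass. The SA line had 4.97 and 9.92 CPM in basal wild type and 17.4 and 11.5 CPM in basal SA, against 11.2 and 16.95 CPM and 22.45 and 16.8 CPM after KCl. In the SE line the values were 8.22 CPM in basal wild type and 7.17 and 7.38 CPM in basal SE, and 10.6 CPM and 11.3 and 10.95 CPM after KCl. Ratios within a culture were 1.29 to 2.25, and basal levels of different cultures were further apart than that. The log2 change was 0.62 ± 0.18 (adjusted p = 0.102). It passed in 5 of 21 other settings, including DESeq2 (adjusted p = 0.0207) and a replicate block (adjusted p = 1.38e-05). The change was 0.78 without the basal library of SA-line wild-type culture 2 and 0.54 without SA-line wild-type culture 1.

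Penk (chr4:4133531-4138819, minus strand) was likewise higher in 7 of 7 cultures, by ratios of 1.09 to 1.61, with a log2 change of 0.36 ± 0.16 (adjusted p = 0.381). It passed in 1 of 21 other settings, the replicate block (adjusted p = 0.0113). Npy (chr6:49822710-49829507, plus strand) was higher in 3 cultures of the SA line and lower in the other 4 cultures. Its ratios were 0.679 to 0.711 in the SE line, where levels were only 23 to 45 counts, and 0.929 to 1.096 in the SA line. The log2 change over all cultures was -0.18 ± 0.24 (adjusted p = 0.910).

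Estimated counts per transcript placed part of the response in particular isoforms. Scg2 has a pair of annotated coding transcripts, and Scg2-202 starts 78 bases downstream of Scg2-201 and lacks 120 bases (40 codons, chr1:79435932-79436051) of the second exon. Scg2-202 took 35.0% to 53.5% of the gene's counts at basal and 57.7% to 74.0% after KCl, and its share was higher in 7 of 7 cultures with no overlap between treatments. Its mean level went from 9.83 ± 1.34 to 62.7 ± 18.2 CPM (SD, n = 7), a ratio of 6.37, while Scg2-201 went from 14.6 ± 3.61 to 33.7 ± 7.13 CPM, a ratio of 2.31. The full element printed above for Scg2 lies 26 bases inside Scg2-201 and 45 bases upstream of the start of Scg2-202. Scg2-202 has 0 bases that Scg2-201 lacks, so its share rests on junction reads and on how the model divided shared reads, and no error of that division was available.

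By estimated counts, the rise of Vgf lay mostly in 1 transcript, Vgf-201. Vgf-204 starts 3903 bases upstream of Vgf-201 and held 10.3% to 44.6% of the gene's counts at basal and 2.24% to 7.63% after KCl, a share lower in 7 of 7 cultures. Its level did not drop: it was higher after KCl in 7 of 7 cultures, with means of 4.30 ± 2.67 CPM at basal and 6.55 ± 4.28 CPM after KCl (a ratio of 1.52), while Vgf-201 went from 13.9 ± 4.82 to 119 ± 56.2 CPM, a ratio of 8.54. The gene-level ratio of Vgf is therefore smaller than that of Vgf-201. Vgf-203, with a start of its own, went from a mean of 0.449 to 5.02 CPM, a ratio of 11.2. Vgf-202 had 0 counts at basal and averaged 0.726 CPM after KCl. These levels rest on how the model divided reads shared by the transcripts, and no error of that division was available. The highest basal share of Vgf-204, 44.6%, belonged to the 1 wild-type culture of the SE line. Shares in other genes overlapped between treatments: Pcsk1-201 held 97.2% to 100% of its gene, Penk-201 57.1% to 75.4% at basal and 58.5% to 74.1% after KCl, and Scg3-202 57.5% to 64.4% and 57.4% to 66.1%. Sst, Npy and Crh have 1 transcript each in the files.

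**Figure D4:**
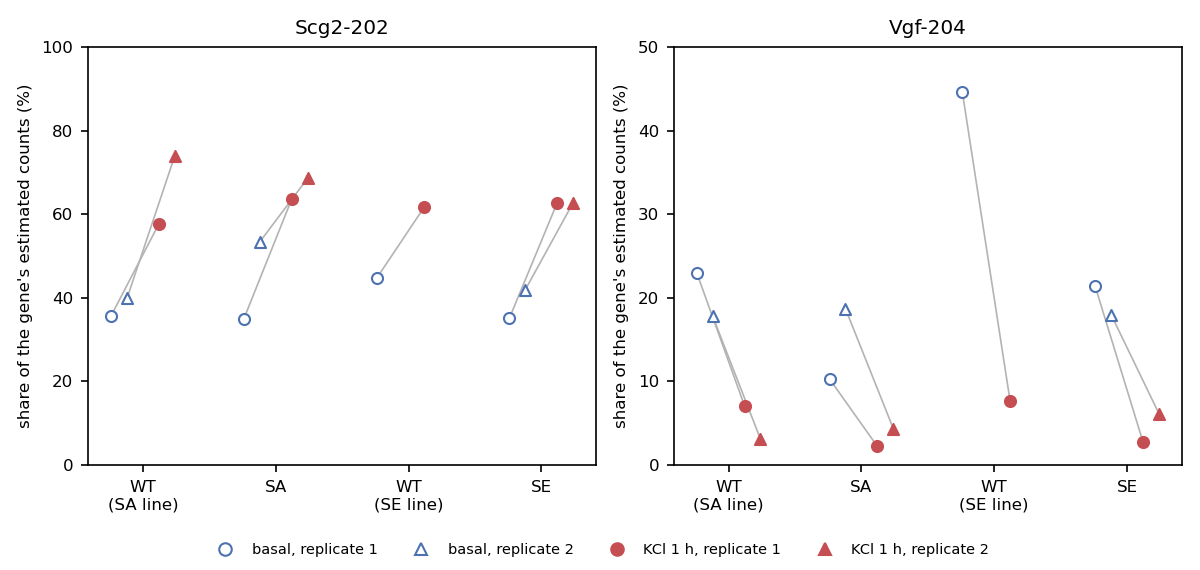
Share of the gene's estimated counts (%) assigned to Scg2-202 (left, axis to 100) and Vgf-204 (right, axis to 50) in each library; open symbols are basal, filled symbols KCl, and lines join libraries of the same number. The Scg2-202 share is higher after KCl in 7 of 7 cultures and the Vgf-204 share is lower in 7 of 7.

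Most other genes of the peptide route did not pass after KCl over all cultures. Of all genes tested 4.82% passed there, 2.81% as higher. Of 7 granins and granin-like genes, 2 rose (Scg2 and Vgf), 0 fell and 5 did not pass, with a median log2 change of 0.059. The most abundant of them, Pcsk1n, which encodes the inhibitor proSAAS, was at 0.02 (adjusted p = 0.998). Of 18 processing enzymes only Pcsk1 rose, and the median was 0.015. Cpe, the carboxypeptidase that trims peptides after cleavage and the most abundant of the 18, was at -0.02 (adjusted p = 0.976). Of 16 measured dense-core vesicle genes only Syt4, a synaptotagmin of these vesicles, rose (0.63 ± 0.14, adjusted p = 0.0337). Syt7, the most abundant of them, was at 0.10 (adjusted p = 0.934).

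Other peptide precursors rose as well, in a comparison where 2.81% of all genes tested passed as higher. Of 53 listed, 29 were abundant enough to be tested, and 5 rose, 0 fell and 24 did not pass. The median was 0.143. Besides Tac1 and Crh these were Cartpt, the precursor of the CART peptide (2.39 ± 0.36, adjusted p = 0.0033), Adcyap1, which encodes PACAP (2.13 ± 0.37, adjusted p = 0.00802), and Cort, which encodes cortistatin (1.40 ± 0.25, adjusted p = 0.00905). Cartpt and Cort averaged only 0.583 and 0.621 CPM. Cck, the most abundant precursor, was at 0.15 (adjusted p = 0.911). Among 24 tested receptors 1 rose, Sstr2, a somatostatin receptor (0.75 ± 0.08, adjusted p = 2.46e-04). Adcyap1r1, the PACAP receptor and the most abundant of them, was at -0.13 (adjusted p = 0.693).

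Markers of cell types were set beside these responses and the 2.81% of all genes tested that passed as higher. Among 19 GABAergic interneuron markers 3 rose after KCl, the homeobox genes Dlx5 (1.12), Dlx2 (0.68) and Dlx6 (0.49), and 16 did not pass, with a median of 0.125. Medians of the glutamatergic, striatal, astrocyte, oligodendrocyte, microglial, endothelial, meningeal and progenitor markers lay between -0.09 (oligodendrocyte) and 0.13 (meningeal). As a reference for the stimulus, 10 of 10 immediate early genes rose, with a median log2 change of 6.49, and Npas4 rose by 8.14.

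The lines differed at basal in 3 of the 10 genes, 2 higher and 1 lower in the SE line. Of all tested genes 47.8% were called in this comparison, 21.8% as higher and 26% as lower, so this count is not above the background. Npy was the gene with the largest difference. It held 6.25 and 13.5 CPM in basal wild type and 17.6 and 18.1 CPM in basal SA, against 1.51 CPM in wild type and 1.80 and 2.05 CPM in SE of the SE line. No library of either line reached the other. The log2 difference, SE line minus SA line, was -2.90 ± 0.37 (adjusted p = 2.03e-04). After KCl the SA line again held more, at 5.81 and 14.5 CPM in wild type and 19.25 and 19.3 CPM in SA, against 1.05, 1.28 and 1.39 CPM in the SE line.

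Penk went the other way. It held 6.29 and 4.03 CPM in wild type and 4.13 and 3.04 CPM in SA of the SA line at basal, against 13.5 CPM in wild type and 14.1 and 17.4 CPM in SE of the SE line. The lines did not overlap, and the log2 difference was 1.80 ± 0.23 (adjusted p = 2.31e-04). Npy and Penk kept these calls in 20 of 20 other settings. Pcsk1 was also higher in the SE line at basal, by 1.01 ± 0.28 (adjusted p = 0.0138), and this call was lost in 2 of 20 settings, on log2(TPM + 1) with limma (adjusted p = 0.116) and without basal SE replicate 1 (0.93, adjusted p = 0.055). Wild-type SA-line culture 1 bears on the rest. With all libraries the difference was 0.52 for Vgf (adjusted p = 0.173), -0.62 for Pcsk2 (adjusted p = 0.110) and -0.45 for Sst (adjusted p = 0.181). Without that culture it was 0.89, -0.83 and -0.66. Pcsk2 passed without a filter. Scg2 differed by -0.29 (adjusted p = 0.103), passed in both limma fits, and differed by -0.40 without basal SA replicate 2.

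**Figure D5:**
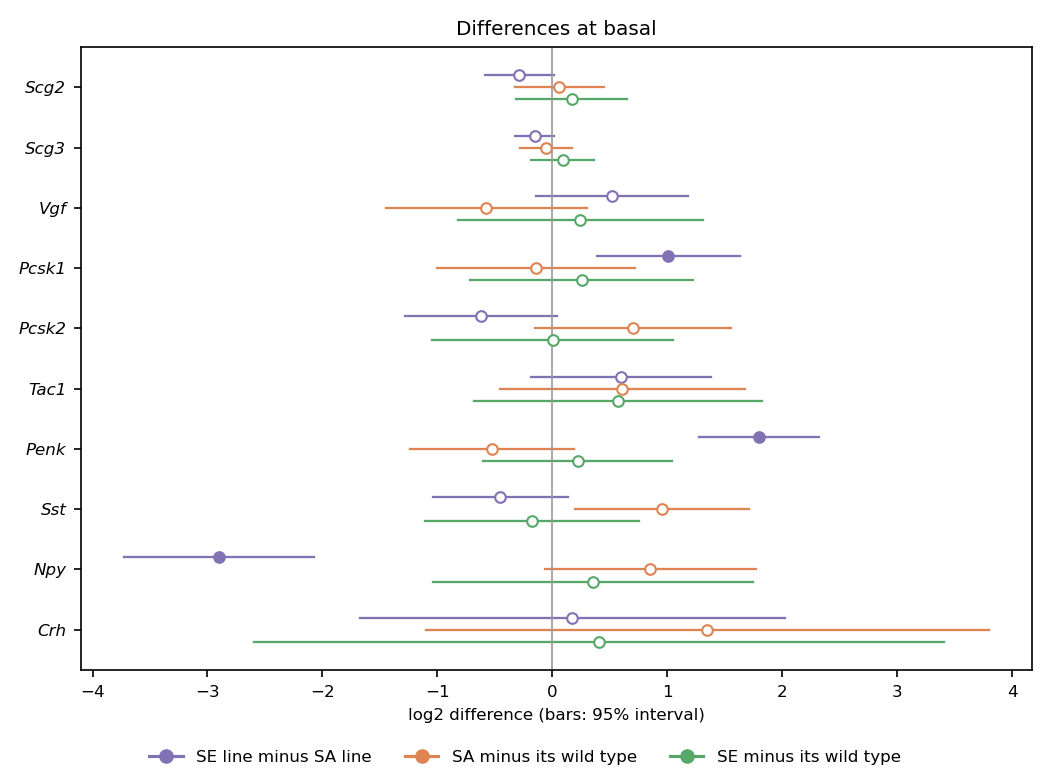
Log2 differences at basal for the SE line minus the SA line, SA minus the wild type of its line and SE minus the wild type of its line; bars are 95% intervals and filled points passed an adjusted p under 0.05. Npy at -2.90, Penk at 1.80 and Pcsk1 at 1.01 are the 3 filled points, all of the comparison between lines.

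Cell type markers moved with the line. Of 19 GABAergic interneuron markers 12 were lower and 2 higher in the SE line at basal, with a median log2 difference of -1.11 and sums of 614.5 to 684 CPM in the SE line against 801 to 1041 CPM in the SA line. Of 10 striatal projection neuron markers 4 were higher, among them the dopamine receptor Drd1 (2.06), and 1 was lower, with sums of 174 to 196 CPM against 79.6 to 158 CPM. Those 5 of 10 are near the 47.8% of all genes called. Of 10 glutamatergic markers 6 were higher and 1 lower, and of 10 astrocyte markers 9 were lower and 0 higher. Markers of other cell types were lower too, in 7 of 7 meningeal (median log2 difference -2.64) and 6 of 8 progenitor genes (-2.58, with 1 higher). The same held for 7 of 8 oligodendrocyte (-2.47), 5 of 6 endothelial and mural (-2.47) and 7 of 8 microglial genes (-1.86). Summed levels of the meningeal markers were 30.1 to 45.35 CPM in the SE line against 172.7 to 429.6 CPM in the SA line, and those of the progenitor markers 119 to 133.4 CPM against 504.2 to 1194 CPM. Their part in the differences of Npy, Penk and Pcsk1 was not tested. Line, batch and genetic background cannot be told apart.

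Related genes split in the same comparison. Of 7 granins and granin-like genes 4 were higher in the SE line and 0 lower: Chgb (1.02), Chga (0.91), Pcsk1n (0.93) and Scg5, which encodes the PC2 chaperone 7B2 (0.60). Processing enzymes were divided 6 to 6, with Pcsk5 higher (1.63) and Pam, the amidating enzyme, and Pcsk6 lower (-1.63 and -2.15). Of 29 precursors 6 were higher and 8 lower, and Trh (2.97) and the dynorphin precursor Pdyn (1.51) were higher with Penk. Receptors were divided 6 to 6 as well, with Sstr2 higher (1.19) and the neuropeptide Y receptor Npy1r lower (-1.52). The 14 of 29 precursors and 12 of 24 receptors called are near the 47.8% of all genes.

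The KCl response itself was compared between lines, and 0 of the 10 genes passed (0.152% of all genes called, DESeq2 0 of the 10, unadjusted p under 0.05 for 1 of the 10). The gene with that p was Pcsk1, with ratios within cultures of 10.3 to 21.2 in the SA line and 6.02 to 9.46 in the SE line. Its log2 difference was -1.15 ± 0.37 (edgeR, unadjusted p = 0.0108, adjusted p = 1), -1.30 (adjusted p = 0.0459) without SA-line wild-type culture 1, and -1.39 (adjusted p = 0.0383) without the KCl library of that culture alone. Crh had the opposite order, with ratios of 2.75 to 7.99 in the SA line and 10.1 to 13.9 in the SE line, and a difference of 1.76 ± 1.09 (adjusted p = 1). Without that culture it was 1.81 (adjusted p = 0.00579), and without the basal library of the other wild-type culture of the SA line it turned to -0.15 (adjusted p = 1). Tac1 had ratios of 3.497 to 5.49 against 1.43 to 3.07, with a difference of -1.02 ± 0.46 (adjusted p = 1). Vgf differed by 0.58 and Scg2 by -0.32 (both adjusted p = 1). In the same comparison 3 of 10 immediate early genes passed, all with a larger response in the SE line: Arc (2.01), Egr1 (1.83) and Nr4a1 (1.17).

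No difference between a mutant and the wild type of its line passed for any of the 10 genes. For SA against the wild type of its line, edgeR called 0 of the 10 and 0% of all genes at basal, with unadjusted p under 0.05 for 1 of the 10 (Sst) and for 1279 genes, and DESeq2 called 0 genes. After KCl it called 0 of the 10 and 0% of all genes, with 1 of the 10 and 2040 genes under 0.05 unadjusted, while DESeq2 called 0 of the 10 and 126 genes. The log2 differences at basal ran from -0.58 for Vgf to 1.35 for Crh, and both ends rest on culture 1. Without it Vgf gave 0.18 (adjusted p = 0.921) and Crh 0.39 (adjusted p = 0.913), while Crh gave 5.16 (adjusted p = 0.178) without the basal library of wild-type culture 2.

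Sst, Npy and Pcsk2 showed the next largest basal differences, all higher in SA: 0.95 ± 0.34 for Sst, 0.85 for Npy and 0.70 for Pcsk2 (adjusted p = 0.621 each). For each of these 3 genes, and for Tac1 and Crh, both SA libraries were above both wild-type ones, which held for 19.5% of all genes tested (34.2% were apart in either direction). The lower wild-type library of Sst, Npy and Pcsk2 was culture 1, and without it the differences were 0.54, 0.40 and 0.29 (adjusted p = 0.913 each). After KCl, Npy differed by 0.92 ± 0.41 (adjusted p = 0.433) and Pcsk2 by 0.76 (adjusted p = 0.461). Without culture 1 these were 0.41 (adjusted p = 0.681) and 0.32 (adjusted p = 0.756), and without the KCl library of wild-type culture 2 they were 1.73 and 1.41 (adjusted p = 0.143 each). Culture 1 also had the lowest striatal marker sums of the SA line, 79.6 CPM at basal and 79.1 after KCl, and the highest meningeal ones, 429.6 and 429.4 CPM over 7 genes. The part of its cell makeup in these differences was not tested.

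For SE against the wild type of its line, which had 1 library per treatment, edgeR called 0 of the 10 and 0% of all genes at both treatments. At basal, log2 differences ran from -0.18 for Sst to 0.57 for Tac1, and after KCl from -0.24 for Tac1 to 0.37 for Vgf. Unadjusted p under 0.05 was reached by 0 of the 10 genes at either treatment, and by 187 genes at basal and 240 after KCl. DESeq2 called 0 of the 10 at both treatments.

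The response to KCl was also compared between each mutant and its wild type, with 0 of the 10 called by edgeR (0% of all genes) and by DESeq2 in both lines, and 0 of the 10 at an unadjusted p under 0.05. For Scg2 the difference in response was -0.07 in SA, with a 95% interval of -0.61 to 0.472, and -0.0025 in SE, with an interval of -0.672 to 0.667. For Vgf it was 0.21 in SA (-0.998 to 1.41) and 0.13 in SE (-1.34 to 1.59). For Pcsk1 it was 0.11 (-0.998 to 1.21) and 0.06 (-1.23 to 1.34). For Crh it was -0.24 (-3.48 to 3.004) and -0.37 (-4.24 to 3.499). All of these had an adjusted p of 1. Without culture 1 the differences in SA were -0.19 for Scg2, 0.02 for Vgf and -0.30 for Pcsk1. Of these 4 genes Scg2 had the narrowest intervals and Crh the widest.

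Genes whose levels ran most like those of a member were found by Pearson correlation of log2 CPM over the 14 libraries after the mean of each line was subtracted, among 13286 genes. The libraries share the KCl treatment, which sets most of these values for genes that respond. Scg2 was closest to Fosb (r = 0.991), Fosl2 (0.989) and Npas4 (0.989), all activity-dependent transcription factors. Pcsk1 was closest to Fosl2 (0.988), Scg2 (0.986) and Bdnf (0.986), a neurotrophin. Vgf was closest to Zfp184 (0.989), Nfil3 (0.986) and Nfkbid (0.985).

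Other members had other neighbours. Crh was closest to Ets2 (r = 0.98), Tspoap1 (0.964) and Ina (0.961), and Tac1 to Rasgrf1 (0.972), Gpr135 (0.955) and Klf5 (0.949). The Crh values include the library with 2 counts, basal wild-type culture 1 of the SA line. Pcsk2 was closest to Ppp2r2c (0.998), Cplx2 (0.993) and Dync1i1 (0.992). Npy was closest to Nrarp (0.968), Fam124a (0.959) and Tubb4a (0.954), and Penk to Pmaip1 (0.932), Azin2 (0.905) and Zfp868 (0.904). Pcsk2, Npy and Penk did not pass after KCl. At both treatments SA-line wild-type culture 1 held the lowest Pcsk2 and Npy and the highest Penk levels of that line. Its part in these correlations was not tested. Scg3 had no close neighbour, with Slc7a6os at 0.78 as its first.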

How the data were processed

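Total RNA was extracted with TRIzol for library preparation, per the labels' protocols. Per the submitters' processing notes, the authors used kallisto 0.43.1 with GRCm38 (mm10), and they deposited estimated counts and TPM per transcript and gene symbol. Gene counts differed from summed transcript counts by at most 5.09e-11, and reads shared by transcripts were divided by kallisto's model. Here estimated counts were rounded, genes filtered with filterByExpr (17732 kept, all 10 members among them), scaled by TMM and fitted with edgeR 4.0.16 (R 4.3.3, quasi-likelihood, 8 group means, 14 libraries, 6 residual degrees of freedom, Benjamini-Hochberg over all genes of a comparison). The single wild-type libraries of the SE line were assumed to vary like the other groups. Levels are CPM on TMM-scaled libraries, and TPM served to rank genes. Group means weighted cultures equally. On simulated data for the wild-type comparison (17305 genes for the smaller fold) the fit recovered 63% of 2-fold and 95.5% of 4-fold changes. For SA against wild type at basal (17295 genes for the smaller fold) it recovered 37.5% of 2-fold and 88% of 4-fold changes, and for the response between lines (17296) 26% and 87%. Changes were planted only in genes averaging at least 1 CPM, and the simulated libraries were independent. These rates therefore do not cover lower genes or same-numbered libraries that go together. Alternatives were DESeq2 1.42.0, its size factors, no filter, limma 3.58.1 on log2(TPM + 1) or log2(TPM + 0.1), a replicate block, each line alone and each library left out. Coordinates are from GENCODE M21 and promoters from RefSeq GRCm38.p6. All 10 members were named, and in each list up to 4 called genes with the lowest p and the most abundant one, not all of which are reported, and the 3 genes most correlated with a member. Members and lists were chosen with earlier results of these data known. The genes closest in pattern to Sst are not reported here.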

Additional observations from a re-analysis of the deposited data

How the results depend on the processing

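Npy and Penk kept their difference between lines, and Scg2 and Pcsk1 their rise over all cultures and within each genotype, in every setting run. Same-numbered libraries went together in the SA line but not in SE. Their deviations correlated at 0.828 in SA-line wild type, 0.63 in SA and -0.0367 in SE. The main fit used no replicate block, so its p-values take no account of such pairing. With a replicate block the genes called rose to 829 in wild type, 613 in SA, 1024 in SE and 2328 over all cultures, and were 2 for the response difference of SE and 146 for that between lines. The block called 6 of the 10 genes in SA, 5 in SE and 2 between lines in response, Pcsk1 (-1.12, adjusted p = 0.0282) and Crh (1.74, adjusted p = 3.93e-04). It also called Sst (adjusted p = 1.38e-05) and Penk (adjusted p = 0.0113) over all cultures.

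Genes called in wild type were 133 from the SA-line wild type alone and 82 (2 of the 10 genes) from that of the SE line. A line fitted alone gave 67 in SA, 961 in SE (5 of the 10 genes), 10 and 31 for SE against wild type at basal and after KCl, and 4 for its response difference. DESeq2 gave 253 in SA, 126 for SA against wild type after KCl, 1 for SE after KCl, 1 for its response difference and 66 for the response between lines. Without a filter the last was 56, and SE after KCl gave 3. Limma on log2(TPM + 1) gave 1 for SE at basal, 2 for SE after KCl and 2 for its response difference, and on log2(TPM + 0.1) 2 at basal, 3 for that difference and 5 of the 10 genes between lines at basal. The main fit called 47.8% of all genes between lines at basal, so such counts of the 10 genes are not above the background. Without SA-line wild-type culture 1 6 of the 10 genes were called between lines at basal, and 2 of the 10 and 45 genes for the response between lines.

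Leaving out 1 library at a time gave 135 to 235 genes in wild type, 68 to 167 in SA, 112 to 301 in SE, 0 to 1 for SA against wild type at basal and after KCl and for SE after KCl, 0 to 1 for the response difference of SE, and 12 to 42 for the response between lines. Of the 10 genes it called 2 to 6 between lines at basal (6 without basal wild-type replicate 1 of the SA line) and 0 to 1 in response between lines.

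Directions turned for values that had not passed. Vgf in SA against wild type at basal was 0.1762 without culture 1 (-1.068 to 0.1761 without single libraries). Scg3 over all cultures was 0.0115 without culture 1 (-0.0262 to 0.006 without single libraries), Pcsk2 -0.2292 to 0.1168 and Npy -0.4108 to 0.0077. For the response difference of SA, Crh was 0.2867 on log2(TPM + 1) (-4.0502 to 2.5716 without single libraries), Pcsk1 -0.2951 without culture 1 (-0.3709 to 0.8234), Vgf -0.548 to 0.771 and Scg2 -0.2893 to 0.1948. For that of SE, Scg2 was 0.001 with DESeq2 size factors, 9e-04 with DESeq2, 0.017 and 0.0105 with limma (pseudocounts 1 and 0.1) and 0.0015 with the replicate block (-0.1295 to 0.1188 without single libraries). Vgf there was -0.102 to 0.3058 and Pcsk1 -0.1568 to 0.2272. Crh in response between lines was -0.1519 to 3.1596, lowest without basal wild-type replicate 2. The cause of these changes was not tested. Tac1, the basal levels of Pcsk1 and Crh, Penk in the SA line and Npy in the SE line rest on under 100 counts in part of the libraries. So does Crh after KCl in SA-line wild-type culture 1. This limits their precision.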
